A study of Mus musculus with 20 samples.

Results

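Hearts of 30-month-old male mice fed alpha- and gamma-tocopherol were compared with hearts of control mice of the same age. The 10 arrays compared, 5 of each group, were chosen by their labels from 20 arrays of the series, and the measured values played no part in that choice. Each array held the heart RNA of 1 animal, so the replicates were separate animals. Supplemented animals received a diet with 500 mg/kg alpha-tocopherol and 500 mg/kg gamma-tocopherol from 15 months of age, and old controls received the control diet. The other groups were 5 young controls, 5 months old on the control diet, and 5 animals of 30 months fed 1000 mg/kg alpha-tocopherol from 15 months. All animals were housed singly, and their strain was given as a B6/C3H F1 hybrid, except that old controls 1 and 4 were labelled as hybrids without the F1 mark. Whole tissue was used, so a difference in a transcript can come from fewer or more cells of a type or from less or more RNA per cell, and these cannot be told apart here. The comparison asks how heart transcripts of old animals differed when the diet held both tocopherols.

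Tocopherols are the saturated forms of vitamin E. They sit in membranes and lipoproteins and stop chains of lipid peroxidation by giving a hydrogen atom to lipid radicals. Gamma-tocopherol lacks a methyl group that alpha-tocopherol carries on its ring. The liver retains alpha-tocopherol in preference through a transfer protein, and lipoproteins carry it to the heart, where lipoprotein lipase and phospholipid transfer protein help to move it into cells.

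The array gave an intensity for each of 12422 probe sets that were not controls, and 7453 remained after the dimmest 40% were left out. Differences are of log2(intensity + 58), both tocopherols minus old control, ± standard error from a fit to all 20 arrays. The constant damps differences of dim genes, so their folds are understated. A probe set or gene is called when its limma p-value, adjusted by Benjamini-Hochberg over the 7453, was below 0.05, and the words rose and fell are used for called genes alone. By this rule 479 probe sets (6.43%) were called, 199 higher (2.67%) and 280 lower (3.76%). For 620 probe sets (8.32%) the 5 values of one group lay wholly above or below the 5 of the other. Of 5663 genes that could be named, 388 (6.85%) were called, 149 higher (2.63%) and 239 lower (4.22%). The median difference over all of them was -0.02, and 493 (8.71%) had groups that did not overlap. After array medians were set equal, 32.6% of the called probe sets were higher, against 41.5% here. Lists of genes are read against these shares. Intensities are given in the order of animals 1 to 5, old controls first.

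Bacterial hybridization controls averaged 13.03 ± 0.36 (SD, n = 5) on the log2 scale with both tocopherols and 12.74 ± 0.15 in old controls (exact two-sided permutation p = 0.16, 0.33 adjusted over 5 measures). The 18S control averaged 11.26 ± 0.90 and 10.74 ± 0.50 (exact p = 0.26, 0.33 adjusted). Supplemented animals 1, 2 and 5 read 11.73, 11.98 and 11.91 on 18S, above every old control, and animals 3 and 4 read 10.76 and 9.90. Old control 3 had a 3' minus 5' Gapdh difference of 1.21, while the other old controls lay between -0.15 and -0.11. The 3' minus 5' actin difference averaged 0.01 ± 0.08 with both tocopherols and 0.15 ± 0.10 in old controls. Its p was the smallest of the 5 measures (exact permutation p = 0.056, 0.28 adjusted). The actin difference was not used as a covariate. The number called was 242 when the hybridization control level entered the fit as a covariate (the hybridization covariate below), 344 with the 18S level, 162 without old controls 1 and 4, and 406 without old control 3. Leaving out single animals gave 263 to 447 calls, with the fewest without supplemented animal 1.

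**Figure D1:**
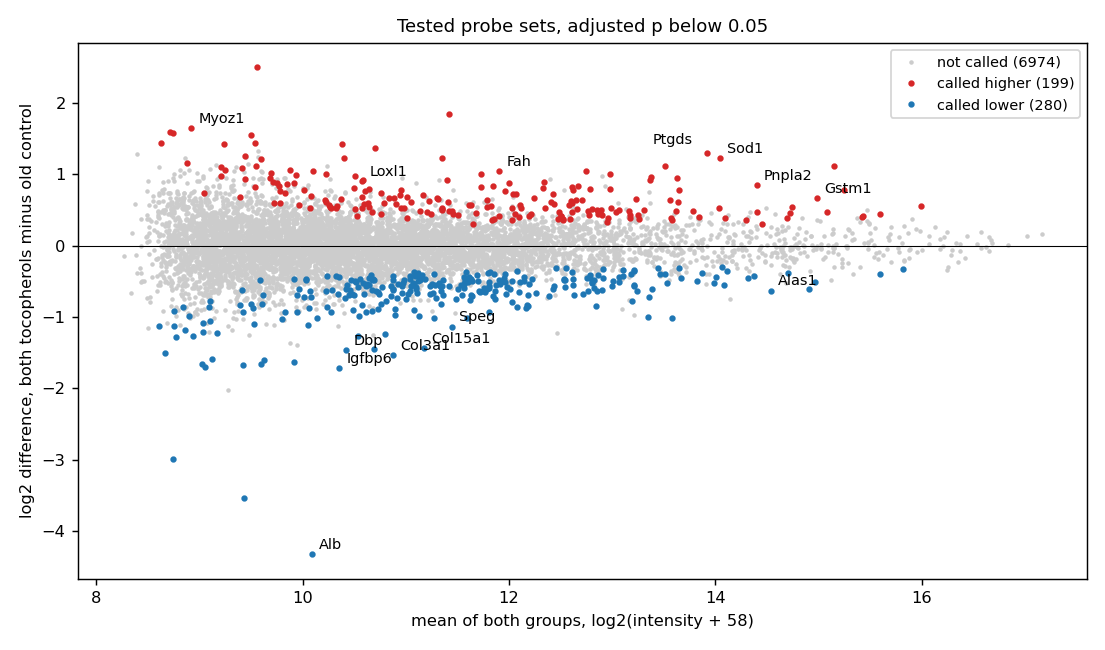
Difference of log2(intensity + 58) between both tocopherols and old controls (vertical) against the mean of the groups (horizontal) for 7453 probe sets, with 199 called higher in red, 280 called lower in blue and the others in grey. Albumin (Alb) lies lowest at -4.33, and the labelled genes are described in the text.

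Several extracellular matrix genes were lower with both tocopherols. The matrix is the scaffold of collagens, laminins and proteoglycans around heart cells, made largely by fibroblasts and, in basement membranes, also by endothelial and muscle cells. Of 13 tested basement membrane collagens and laminins 5 fell and 0 rose, with a median of -0.37. Of 24 proteoglycans, glycoproteins and elastic fibre genes 3 fell and 0 rose (median -0.41). Of 12 genes of fibrillar collagens and collagen processing 2 fell and 2 rose (median -0.08). The 2 that rose were Col1a2, whose probe sets differed in sign, and the oxidase gene Loxl1.

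Col3a1 encodes a fibrillar collagen of pliable tissue. Its intensities were 2791, 2659, 3096, 3606 and 3682 in old controls and 1121, 1173, 734, 1408 and 909 with both tocopherols, a difference of -1.54 ± 0.26 (SE, adjusted p = 0.0015). Each supplemented animal lay below each old control, with animal 3 the lowest. Col5a2, a chain that nucleates collagen fibrils, fell from a range of 1263 to 2177 to one of 588 to 965 (-1.02 ± 0.23, adjusted p = 0.0103), again without overlap.

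Col1a2, a chain of the main fibrillar collagen of scar, went the other way. Old controls read 7568, 6651, 8109, 7427 and 6179.8 and supplemented animals 10749, 10832, 9523, 9198 and 10495, a difference of 0.50 ± 0.11 (SE, adjusted p = 0.012). Every supplemented animal exceeded every old control in this probe set. A second probe set of Col1a2 had a difference of -0.47 and was not called, so the direction for this gene is uncertain. Its partner chain Col1a1 was not called at its brightest probe set (-0.31 ± 0.18, adjusted p = 0.301), with overlapping groups, while its other probe set, at -0.90, was called lower.

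Loxl1, an oxidase that cross-links elastic fibres, rose. Its intensities were 1042, 1083, 1334, 835 and 1049.8 in old controls and 2034, 2294, 1869, 2012 and 1962 with both tocopherols (0.90 ± 0.15, adjusted p = 0.0011). The supplemented animals lay close together and all above the controls. The calls on Col3a1, Col1a2 and Loxl1 held under every alternative that tested them. Col5a2 lost the call with the hybridization covariate and without old controls 1 and 4.

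In the basement membrane Col15a1, a collagen that ties muscle and capillary membranes to the surrounding fibres, read 3621, 4009, 3954, 4053 and 3138 in old controls and 932, 1576, 774, 2186 and 1739 with both tocopherols. The difference was -1.44 ± 0.22 (SE, adjusted p = 0.00074), and the lowest control lay above the highest supplemented animal. Col4a1 and Col4a2 encode the chains of the common type of collagen IV and lie next to each other in opposite orientation in the RefSeq table of GRCm38.p6. Col4a1 fell from a range of 6325 to 8092 to one of 3479.5 to 4765 (-0.71 ± 0.15, adjusted p = 0.0088) and Col4a2 from a range of 9261 to 11269 to one of 6686 to 7912 (-0.51 ± 0.10, adjusted p = 0.0054). Neither gene had overlapping groups.

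Col18a1, the parent of the angiogenesis inhibitor endostatin, fell (-0.68 ± 0.18, adjusted p = 0.027), although a second probe set, at 0.28, was not called. Hspg2, which encodes the heparan sulfate proteoglycan perlecan, also fell (-0.61 ± 0.18, adjusted p = 0.043), with animal 1 of the supplemented group inside the control range. The calls on Col15a1 and Col4a2 held under every alternative that tested them. Col18a1 and Hspg2 lost their calls with the hybridization covariate, and Col4a1, Col18a1 and Hspg2 without old controls 1 and 4. The Col18a1 call was lost without animal 2, 3 or 4 fed both tocopherols or old control 1 or 3 (adjusted p up to 0.084). Hspg2 was not called without any 1 animal other than animal 1 fed both tocopherols and old control 4 (adjusted p up to 0.102). Another filter, scaling or model setting also ended the call on Hspg2.

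Among matrix proteins outside these families, dermatopontin (Dpt), which binds collagen fibrils, fell from a range of 1838 to 3162 to one of 858 to 1626 (-0.82 ± 0.20, adjusted p = 0.017). Lumican (Lum), a small proteoglycan that spaces fibrils, fell from a range of 5214 to 8188 to one of 3459 to 5036 (-0.61 ± 0.16, adjusted p = 0.025). Periostin (Postn), a protein of activated fibroblasts, read 2602, 2631, 2430.5, 7782 and 3734 in old controls against 1931, 2232, 891, 1892 and 1842 with both tocopherols (-1.01 ± 0.27, adjusted p = 0.029). Old control 4 carried the highest periostin value and supplemented animal 3 the lowest, and the groups did not overlap. Timp2, an inhibitor of matrix metalloproteinases, read 2561, 2585, 3031, 2258 and 2322 in old controls against 1344, 1624, 1078, 1235 and 1479.9 with both tocopherols, a difference of -0.89 ± 0.13 (SE, adjusted p = 0.00051). It was the 1 called gene of 11 tested proteases and inhibitors, whose median was 0.03. The call on Timp2 held under every alternative that tested it. Lum and Postn lost their calls with the hybridization covariate and with the 18S covariate, and Dpt, Lum and Postn without old controls 1 and 4. Dpt was not called without animal 1 fed both tocopherols or old control 5 (adjusted p up to 0.053). The Lum call was lost without animal 1 fed both tocopherols or old control 4 or 5 (adjusted p up to 0.074). Postn was not called without animal 1 or 3 fed both tocopherols or old control 4 or 5 (adjusted p up to 0.073). Another filter, scaling or model setting also ended the call on Postn.

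**Figure D2:**
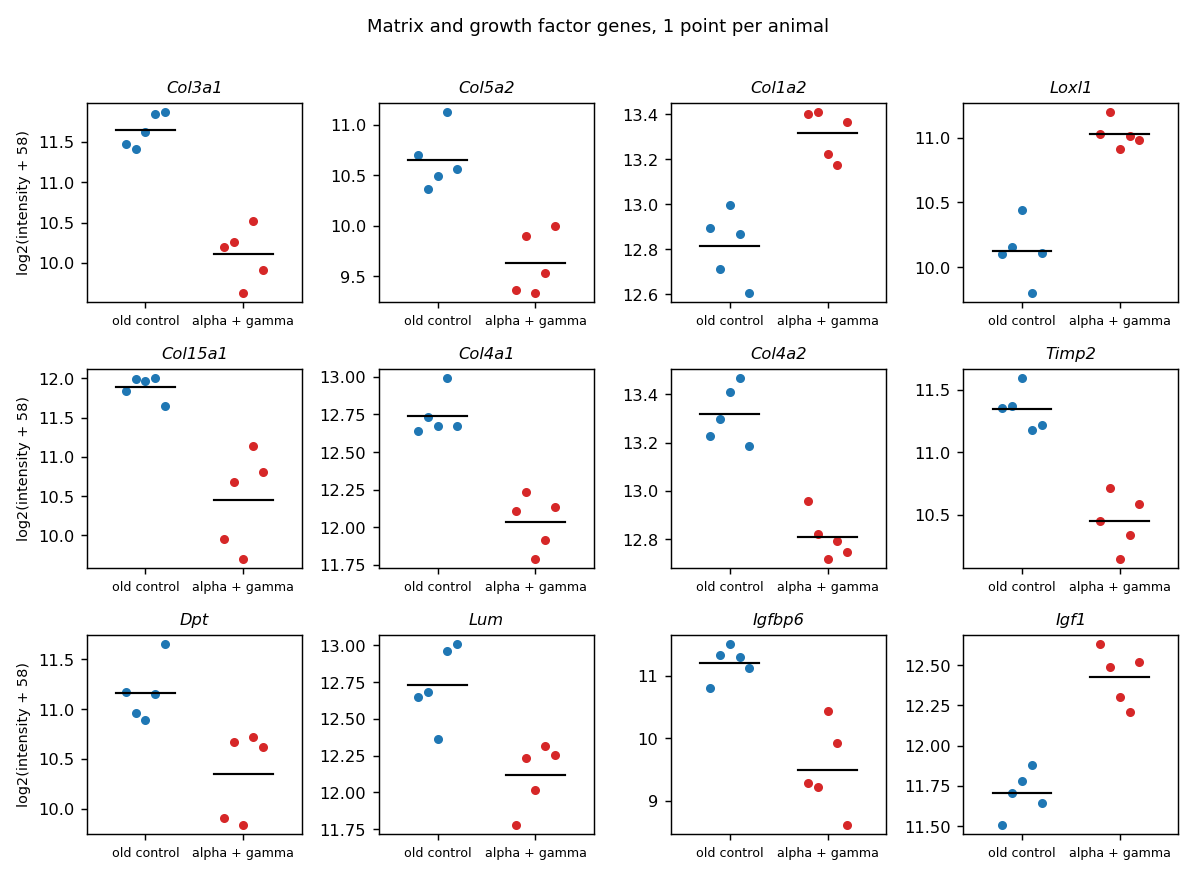
Level of 12 matrix and growth factor genes as log2(intensity + 58), 1 point per animal for old controls (blue) and both tocopherols (red), with the group mean as a line. The 12 genes were chosen among called genes. The groups are apart in all 12 panels, with Col1a2, Loxl1 and Igf1 higher and the other 9 genes lower with both tocopherols. A second probe set of Col1a2, at -0.47 and not called, is not shown.

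Markers of the cells that make matrix moved in part. Of 12 tested fibroblast markers 3 fell (Col3a1, Dpt and Lum) and 1 rose (Col1a2), and the called markers are themselves matrix genes. For Col1a2 the direction was uncertain, since its probe sets differed in sign. The summed intensity of 13 fibroblast markers ran from 69924 to 77224 in old controls and from 53711 to 81757 with both tocopherols, so the ranges overlapped. Their part in the matrix differences was not tested.

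Growth factor genes of the same tissue changed in both directions. Insulin-like growth factor 1 (Igf1), a growth and survival signal, read 2855, 3286, 3464, 3715 and 3146 in old controls and 6287, 5685, 4989, 4666 and 5798 with both tocopherols. The difference was 0.72 ± 0.15 (SE, adjusted p = 0.00604), and each supplemented animal lay above each control. Igfbp6, a binding protein that holds back insulin-like growth factor 2, read 1724, 2509, 2858, 2454 and 2169 in old controls against 565, 539, 1322, 913 and 335 with both tocopherols (-1.71 ± 0.30, adjusted p = 0.0017). Supplemented animals 3 and 4 were the highest of their group, yet below the lowest control.

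Igf2r, the receptor that clears insulin-like growth factor 2, rose (0.57 ± 0.14, adjusted p = 0.017), with supplemented animal 4 inside the control range. These were the 3 called genes of 9 in the list (median 0.08). In the list of TGF beta and activin signalling 1 of 22 genes rose and 1 fell (median -0.08), shares close to those of all genes. Smad2, which carries the signal of these receptors to the nucleus, fell from a range of 1253 to 1777 to one of 710.3 to 1127 (-0.63 ± 0.16, adjusted p = 0.021), and the activin receptor Acvr1b rose from a range of 117 to 435 to one of 262 to 1468 (1.60 ± 0.47, adjusted p = 0.043). The calls on Igf1 and Igfbp6 held under every alternative that tested them. Acvr1b lost the call with the hybridization covariate, Igf2r and Smad2 with the 18S covariate, and Igf2r, Smad2 and Acvr1b without old controls 1 and 4. Igf2r was not called without animal 1 fed both tocopherols (adjusted p up to 0.053). The Smad2 call was lost without animal 1 fed both tocopherols or old control 1 or 5 (adjusted p up to 0.063). Acvr1b was not called without any 1 animal other than animals 1 and 5 fed both tocopherols and old control 4 (adjusted p up to 0.11). Another filter, scaling or model setting also ended the call on Acvr1b.

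Endothelial cells line the vessels and are the most numerous non-muscle cells of the heart. Of 14 tested endothelial markers 4 fell and 0 rose, and the median of the list was -0.06, so the lower values were those of a few members. The stem and endothelial surface protein Cd34 read 2133, 2625, 2640.1, 2793 and 2889.9 in old controls and 1001, 1278, 1400.3, 1813 and 1138 with both tocopherols (-0.97 ± 0.16, adjusted p = 0.0015). The tight junction protein Cldn5 read 1536, 1372, 2143, 1587 and 1714 in old controls against 657, 1208, 1031, 532 and 922 with both tocopherols (-0.94 ± 0.23, adjusted p = 0.019). In both genes all supplemented animals lay below all controls. A second probe set of Cd34 had a difference of -0.22 and was not called.

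The adhesion protein Pecam1 (-0.48 ± 0.14, adjusted p = 0.045) and the receptor Tie1 (-0.57 ± 0.17, adjusted p = 0.043) also fell, close to the threshold, and a second probe set of Tie1, at -0.23, was not called. Summed over 14 endothelial markers, intensities were 40089 to 45548 in old controls and 35653 to 39515 with both tocopherols, without overlap. Cd34, Cldn5, Pecam1 and Tie1 are part of this sum, so it is not independent of their calls. The call on Cd34 held under every alternative that tested it. Pecam1 and Tie1 lost their calls with the hybridization covariate and with the 18S covariate, and Cldn5, Pecam1 and Tie1 without old controls 1 and 4. Cldn5 was not called without animal 1 or 4 fed both tocopherols (adjusted p up to 0.054). The Pecam1 call was lost without any 1 animal other than old controls 3 and 5 (adjusted p up to 0.12). Tie1 was not called without any 1 animal other than old control 3 (adjusted p up to 0.104). Pecam1 and Tie1 also lost their calls under another filter, scaling or model setting.

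Smooth muscle and pericyte markers had a median of -0.43, and 1 of 7 fell. This was smooth muscle actin (Acta2), at 4926 to 6293 in old controls and 2245 to 4692 with both tocopherols (-0.65 ± 0.17, adjusted p = 0.028). The sum over 8 such markers was 20890 to 23495 in old controls and 13764 to 19509 with both tocopherols, without overlap. Acta2 is part of this sum, so it is not independent of the Acta2 call. The part of vessel cells in these differences was not tested.

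Cavin1 builds caveolae, the membrane pits that abound in endothelial, fat and muscle cells. It read 5512, 5674, 2459, 5530.4 and 5604 in old controls and 11047, 12075, 8063, 7704 and 11054 with both tocopherols (1.04 ± 0.19, adjusted p = 0.0023). Old control 3 was far below the other controls, and without it the difference was 0.81 ± 0.13 (adjusted p = 0.00237). A second probe set of Cavin1 had a difference of 0.31 and was not called. The call on Cavin1 held under every alternative that tested it. Acta2 lost the call with the hybridization covariate and without old controls 1 and 4. Acta2 was not called without any 1 animal other than animals 1 and 5 fed both tocopherols and old controls 3 and 4 (adjusted p up to 0.072).

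Immune markers showed few calls. Of 11 tested macrophage and myeloid markers 1 fell, the complement subunit C1qb, from a range of 2094 to 3577 to one of 1041 to 2151 (-0.99 ± 0.22, adjusted p = 0.0092), and a second probe set of it had a difference of -0.06. Differences were above 0 in 1 of these 11 markers, and in 2692 of 5663 genes overall. Genes of antigen presentation had a median of -0.34 with 0 of 15 called. Differences were above 0 in 2 of the 15. Groups did not overlap in 4 of the 15, and in 8.71% of all named genes. The member with the smallest p-value was Cd74, the chaperone of class II molecules, at 7521, 6691, 15283, 8229 and 7536 and 3064, 6618, 1514, 3852 and 5349 (-1.23 ± 0.45, adjusted p = 0.11). Old control 3 was the highest, the groups did not overlap, and the difference was not called. Of 16 interferon-responsive genes and 19 cytokine, chemokine and adhesion genes 0 were called, with medians of 0.10 and -0.29. Differences were above 0 in 10 of the 16 and in 4 of the 19. Summed over 17 myeloid markers, intensities were 39373 to 48584 in old controls and 24862 to 43159 with both tocopherols. C1qb lost the call without old controls 1 and 4.

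Transcripts of liver-secreted proteins were present in these heart samples, and 3 of 11 tested fell with both tocopherols. Albumin (Alb), the main plasma protein, read 1928, 2973, 13004, 7125 and 4808 in old controls and 103, 120.4, 184, 117 and 641 with both tocopherols, a difference of -4.33 ± 0.64 (SE, adjusted p = 0.000504). Old controls spread widely, with animal 3 the highest, and supplemented animal 5 stood above the other 4, but the groups did not overlap. Without old control 3 the difference was -3.97 ± 0.67, and without supplemented animal 5 it was -4.71 ± 0.66.

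Mup3, a urinary protein of a family with near-identical copies, fell from a range of 626 to 2422 to one of 216 to 452 (-1.68 ± 0.36, adjusted p = 0.0081), and its second probe set, also lower, was called as well. Fetuin A (Ahsg) fell (-1.21 ± 0.32, adjusted p = 0.026), with supplemented animal 1 inside the control range. The median over the 11 liver transcripts was -0.94. The sum over 19 liver transcripts had a median of 23640.0 in old controls and 10293 with both tocopherols, with overlapping ranges. The source of the liver transcripts was not tested. The calls on Alb and Mup3 held under every alternative that tested them. Ahsg lost the call without old controls 1 and 4. Ahsg was not called without any 1 animal other than animals 1 and 3 fed both tocopherols and old controls 1 and 2 (adjusted p up to 0.062).

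Genes against oxidants are the setting in which vitamin E is best known. Superoxide dismutases turn superoxide into peroxide, catalase and peroxidases remove peroxide, and glutathione transferases conjugate reactive lipid products. Of 20 superoxide, peroxide and thioredoxin genes 2 rose and 0 fell (median 0.03), and of 18 glutathione genes 1 rose and 0 fell (median 0.24). None of 18 genes of the Nrf2 pathway was called (median 0.05), and the one with the smallest p-value was the epoxide hydrolase Ephx1 (0.85 ± 0.28, adjusted p = 0.076).

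Gstm1, a mu-class glutathione transferase, read 24199, 27756, 24316, 25975 and 26496 in old controls and 46117, 40853, 37625, 38969 and 41079 with both tocopherols. The difference was 0.67 ± 0.09 (SE, adjusted p = 0.00031), and the groups were far apart with little spread inside each. Another Gstm1 probe set had a difference of 0.25 and was not called. The mu-class genes are close copies of each other, so signal of a relative cannot be separated. Catalase (Cat) read 3038, 3475, 3327, 3329.7 and 3136 in old controls against 4793, 4929.8, 4276, 4266 and 3606 with both tocopherols (0.41 ± 0.12, adjusted p = 0.036), a shift that was small but without overlap, and its second probe set, at 0.37, was not called.

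Sod1, the cytosolic dismutase, read 13214, 12248, 14704, 7142 and 9457 in old controls and 35700.3, 49484, 16497, 11558 and 33144 with both tocopherols (1.22 ± 0.27, adjusted p = 0.0088). Supplemented animals 1, 2 and 5 lay far above all controls, animal 3 slightly above, and animal 4 inside the control range. The 3 highest animals were those with the highest 18S signal. With the 18S level as a covariate the Sod1 difference was 0.80 ± 0.13 (adjusted p = 0.00142), and without old controls 1 and 4 the adjusted p was 0.0565.

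Nipsnap2, a mitochondrial protein, and the kinase Uhmk1 had the same pattern over animals. Nipsnap2 read 31682, 28823, 33037, 15871 and 19467 in old controls against 76651, 84842, 38758, 29721 and 58121 with both tocopherols (1.11 ± 0.24, adjusted p = 0.0088). Uhmk1 read 2176, 1508, 2207, 1431 and 1171 in old controls against 7118, 6628, 1422, 1885 and 7137 with both tocopherols (1.22 ± 0.34, adjusted p = 0.035). In each gene the values of supplemented animals 1, 2 and 5 were the highest, and at least 1 of animals 3 and 4 lay inside the control range. Another Uhmk1 probe set had a difference of 0.24 and was not called. With the 18S covariate the differences were 0.76 ± 0.15 for Nipsnap2 (adjusted p = 0.0071) and 0.77 ± 0.25 for Uhmk1 (adjusted p = 0.0834).

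**Figure D3:**
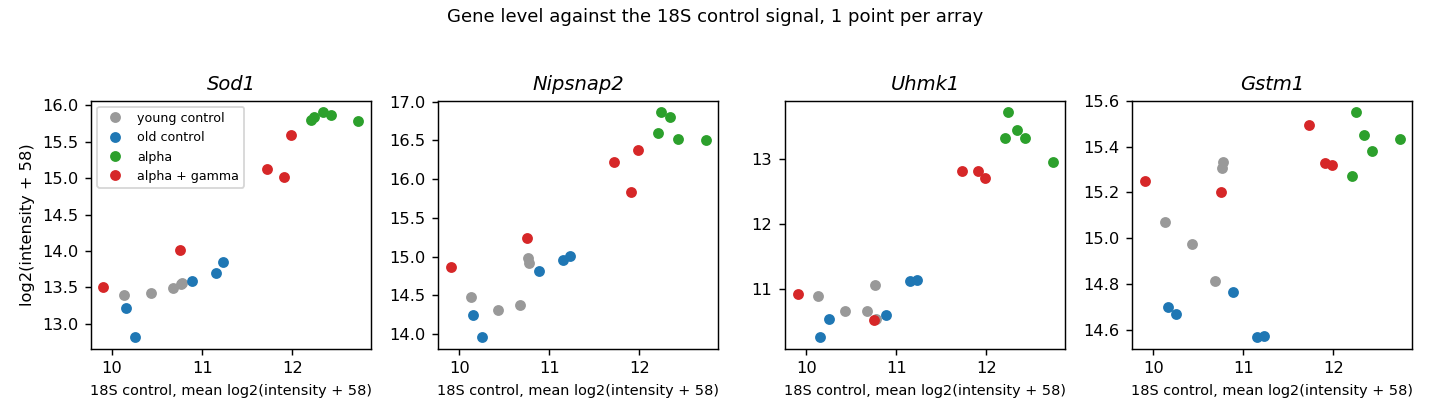
Level of Sod1, Nipsnap2, Uhmk1 and Gstm1 as log2(intensity + 58) against the 18S control signal on the same array, for 20 arrays coloured by group. The supplemented animals with 18S near 12 carry the high Sod1, Nipsnap2 and Uhmk1 values, while Gstm1 is above the old controls on all 5 arrays of both tocopherols, including the 1 with 18S at 9.90.

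Other oxidant genes were not called. The mitochondrial dismutase Sod2 differed by -0.12 ± 0.12, adjusted p = 0.59, the lipid peroxidase Gpx4, which acts beside vitamin E on membrane peroxides, by 0.09 ± 0.09, adjusted p = 0.61, and heme oxygenase Hmox1 by 0.25 ± 0.11, adjusted p = 0.16. Their groups overlapped in every case. The tocopherol transfer protein Ttpa had no probe set with a single symbol here.

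Among 16 tested metal handling genes 0 rose and 1 fell (median 0.03), a share close to that of all genes. This was Alas1, the first enzyme of heme synthesis, which read 30027, 29639, 34173, 29053 and 25381 in old controls and 18432, 20826, 18416, 19398 and 18152 with both tocopherols (-0.63 ± 0.10, adjusted p = 0.00074). All supplemented animals lay below all controls within a narrow range. Pts and Fah were named for the size of their differences and belong to no list. Pts, an enzyme of tetrahydrobiopterin synthesis, read 2479, 2324, 2881, 2582 and 3119.7 in old controls against 761, 977, 1161, 1619 and 1145 with both tocopherols (-1.23 ± 0.16, adjusted p = 0.00028). Fah, the last enzyme of tyrosine breakdown, read 2351, 2625, 2435, 2707 and 3046 in old controls against 6769, 3854, 6483, 5076 and 5602 with both tocopherols (1.04 ± 0.15, adjusted p = 0.00031). The groups did not overlap in either gene. The calls on Gstm1, Nipsnap2, Alas1, Pts and Fah held under every alternative that tested them. Cat and Uhmk1 lost their calls with the hybridization covariate and with the 18S covariate, and Sod1, Cat and Uhmk1 without old controls 1 and 4. The Cat call was lost without any 1 animal other than animal 5 fed both tocopherols (adjusted p up to 0.096). Uhmk1 was not called without any 1 animal other than animals 3 and 4 fed both tocopherols and old controls 1 and 3 (adjusted p up to 0.11). Cat and Uhmk1 also lost their calls under another filter, scaling or model setting.

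Protein folding genes of the endoplasmic reticulum (ER) had few calls. Of 27 genes 2 rose and 0 fell, and the median was 0.16. The share called in either direction was 7.41%, against 6.85% of all named genes. Both calls were rises, and 2.63% of all named genes were called higher. Differences were above 0 in 22 of the 27, and in 2692 of 5663 genes overall. Pdia3, which forms disulfide bonds in glycoproteins, read 492, 521, 709, 1839 and 2512 in old controls and 2105, 2733, 2051, 2637 and 3888 with both tocopherols (1.37 ± 0.36, adjusted p = 0.025). Old controls 4 and 5 were well above the other 3, and old control 5 lay within the supplemented range. Manf, a secreted protein of the ER stress response, read 2165, 1777, 2711, 1536 and 1589 in old controls against 3399.9, 4198, 2412, 4300.4 and 4435 with both tocopherols (0.92 ± 0.23, adjusted p = 0.019), with supplemented animal 3 inside the control range.

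Among cytosolic and mitochondrial heat shock proteins 1 of 25 rose and 2 fell (median -0.02). The constitutive cytosolic chaperone Hspa8 rose from a range of 12321 to 13815 to one of 15119.9 to 18957 (0.40 ± 0.11, adjusted p = 0.027). The 2 genes that fell encode mitochondrial chaperones, Hspe1 from a range of 7553 to 8904 to one of 5061 to 7210.0 (-0.45 ± 0.11, adjusted p = 0.015) and Hspa9 from a range of 13326 to 15168 to one of 10209 to 12668 (-0.31 ± 0.09, adjusted p = 0.042). In these 3 genes the groups did not overlap.

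The proteasome list had 3 genes that rose and 1 that fell of 36 (median -0.07). Psmd4, a ubiquitin receptor of the regulatory particle, read 4603, 5064, 5327, 4784 and 4427 in old controls and 7033, 6568, 6788, 6589 and 6572 with both tocopherols (0.47 ± 0.09, adjusted p = 0.00299). Psma4, a ring subunit of the core, read 8998, 9069, 9233, 9935 and 10021 in old controls against 6110.2, 5281, 5886, 6248 and 7119 with both tocopherols (-0.63 ± 0.10, adjusted p = 0.0013). The groups were apart in both genes, in opposite directions. Psmb2, a core subunit, rose (0.43 ± 0.11, adjusted p = 0.024), with supplemented animal 1 inside the control range.

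Of 22 lysosomal genes 3 fell and 0 rose (median -0.20). Legumain (Lgmn), an asparagine-specific protease, read 2719, 2464, 2840.5, 2664 and 2996 in old controls against 1819, 1739, 1819, 1639.9 and 1512 with both tocopherols (-0.66 ± 0.13, adjusted p = 0.0036), without overlap. Cathepsin C (Ctsc, -0.93 ± 0.23, adjusted p = 0.019) and the membrane protein Cd63 (-0.44 ± 0.11, adjusted p = 0.018) fell with overlapping groups. The calls on Psmd4, Psma4 and Lgmn held under every alternative that tested them. Pdia3, Manf, Hspa8, Hspe1, Psmb2, Ctsc and Cd63 lost their calls with the hybridization covariate, Manf and Hspa9 with the 18S covariate, and Pdia3, Manf, Hspa8, Hspa9, Psmb2, Ctsc and Cd63 without old controls 1 and 4. Pdia3 was not called without animal 2 or 5 fed both tocopherols or old control 1, 2 or 3 (adjusted p up to 0.069). The Manf call was lost without old control 4 or 5 (adjusted p up to 0.052). Hspa8 was not called without any 1 animal other than animals 3 and 5 fed both tocopherols and old control 3 (adjusted p up to 0.067). Hspa9 was not called without any 1 animal other than animal 3 fed both tocopherols (adjusted p up to 0.096). The Psmb2 call was lost without animal 2 or 5 fed both tocopherols or old control 3 or 4 (adjusted p up to 0.066). Ctsc was not called without animal 4 fed both tocopherols (adjusted p up to 0.051). The Cd63 call was lost without old control 4 (adjusted p up to 0.052). Hspa8 and Hspa9 also lost their calls under another filter, scaling or model setting.

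A few lipid handling genes were called, most of them higher. Of 23 genes of fatty acid uptake, storage and lipolysis 3 rose and 1 fell (median 0.04), and of 23 fatty acid oxidation genes 2 rose and 1 fell (median 0.09). Adipose triglyceride lipase (Pnpla2), which starts the release of stored fat, read 15111, 16248, 25818, 12252 and 13856 in old controls and 29461, 31508, 23477, 30165 and 30949.7 with both tocopherols (0.85 ± 0.14, adjusted p = 0.0015). Old control 3 lay within the supplemented range and the other 4 controls below it. Plin4, a lipid droplet coat protein, rose from a range of 919 to 1949.5 to one of 1759 to 2858 (0.73 ± 0.18, adjusted p = 0.017), with overlap.

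Lipoprotein lipase (Lpl), which frees fatty acids and tocopherol from lipoproteins, read 38844, 33772, 43768, 32861 and 44037 in old controls against 56352, 47599, 58949, 48131 and 45733 with both tocopherols (0.41 ± 0.12, adjusted p = 0.036), without overlap. Its inhibitor Angptl4 fell (-0.48 ± 0.14, adjusted p = 0.0396), with 1 supplemented animal just inside the control range. Second probe sets that were not called had differences of 0.28 for Lpl and of -0.50 and -0.04 for Angptl4. Phospholipid transfer protein (Pltp) was not called (0.12 ± 0.15, adjusted p = 0.698). Summed over 10 adipocyte markers, intensities were 63258 to 68075 in old controls and 59217 to 136373 with both tocopherols, and 1 of 7 tested markers, Lpl, was called. Whether fat cells in the samples had a part in the lipid genes was not tested.

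Pdk4, the kinase that shuts off pyruvate oxidation when fat is burned, read 4632, 4962, 9542, 3384 and 7786 in old controls and 8383, 16551, 9911, 14102 and 9671 with both tocopherols (1.00 ± 0.29, adjusted p = 0.043). Old control 3 lay within the supplemented range. The acyl-CoA thioesterase Acot1 rose from a range of 522 to 1054 to one of 918 to 1518 (0.77 ± 0.20, adjusted p = 0.021), with overlap. Ucp3, a mitochondrial carrier linked to fatty acid use, fell from a range of 789 to 1071 to one of 328 to 666 (-0.69 ± 0.19, adjusted p = 0.028). Supplemented animal 2 was far below the others.

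Genes of glucose use had 2 of 22 members lower and 0 higher (median -0.08). The insulin-responsive glucose transporter Slc2a4 read 12597, 14954, 11829, 11986 and 13563 in old controls against 9531, 8847, 11368, 9484 and 9871 with both tocopherols (-0.40 ± 0.09, adjusted p = 0.015), without overlap. Phosphoglycerate kinase (Pgk1) fell (-0.45 ± 0.11, adjusted p = 0.019), with overlap. In creatine kinase, nucleotide and transport genes 3 of 14 fell and 0 rose (median -0.15).

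The outer membrane channel Vdac2 read 5181, 5133, 5540.0, 4190.0 and 4025 in old controls against 3009.5, 2289.7, 3631, 2527 and 2863 with both tocopherols (-0.74 ± 0.18, adjusted p = 0.015). Adenylate kinase Ak4 fell from a range of 1634 to 2143 to one of 871 to 1618 (-0.68 ± 0.19, adjusted p = 0.032) and the AMP-activated kinase subunit Prkag1 from a range of 2898 to 3185 to one of 1038 to 2626 (-0.68 ± 0.16, adjusted p = 0.015). Groups did not overlap in these 3 genes. Another Ak4 probe set, at -0.26, was not called.

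Few respiratory chain genes were called. Of 61 oxidative phosphorylation genes 1 rose and 0 fell, with a median of 0.02 that changed sign to -0.01 after quantile normalization or with array medians set equal. The called gene was the cytochrome oxidase subunit Cox6b1, at 959 to 1401 and 1651 to 2062 (0.53 ± 0.14, adjusted p = 0.024). In the citrate cycle and pyruvate dehydrogenase list 1 of 24 was called, Pdk4. None of 9 cholesterol synthesis genes was called (median 0.18). The calls on Pnpla2 and Slc2a4 held under every alternative that tested them. Plin4, Lpl, Angptl4, Pdk4, Acot1, Ucp3, Vdac2, Ak4 and Cox6b1 lost their calls with the hybridization covariate, Lpl, Angptl4, Pdk4, Acot1, Ucp3, Pgk1, Ak4 and Cox6b1 with the 18S covariate, and Plin4, Lpl, Angptl4, Pdk4, Acot1, Ucp3, Pgk1, Vdac2, Ak4 and Prkag1 without old controls 1 and 4. Plin4 was not called without animal 1 fed both tocopherols (adjusted p up to 0.0502). The Lpl call was lost without any 1 animal other than animals 4 and 5 fed both tocopherols and old controls 3 and 5 (adjusted p up to 0.092). Angptl4 was not called without any 1 animal other than animal 4 fed both tocopherols and old control 2 (adjusted p up to 0.099). The Pdk4 call was lost without any 1 animal other than old controls 3 and 5 (adjusted p up to 0.12). Acot1 was not called without animal 2 fed both tocopherols or old control 2 or 4 (adjusted p up to 0.058). The Ucp3 call was lost without animal 2 fed both tocopherols or old control 1, 2 or 5 (adjusted p up to 0.079). Pgk1 was not called without animal 1 or 2 fed both tocopherols or old control 4 or 5 (adjusted p up to 0.053). Ak4 was not called without any 1 animal other than animals 2 and 3 fed both tocopherols and old control 3 (adjusted p up to 0.093). Cox6b1 was not called without animal 2 fed both tocopherols or old control 3 or 5 (adjusted p up to 0.066). Lpl, Angptl4, Pdk4 and Ucp3 also lost their calls under another filter, scaling or model setting.

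The labelled tissue was checked on its defining markers. The alpha myosin heavy chain Myh6, the main motor of mouse ventricle, was at 81886 to 111896 in old controls and 64545 to 103618 with both tocopherols (-0.18 ± 0.11, adjusted p = 0.34). None of 13 cardiomyocyte markers was called (median -0.08), and their summed intensity was 887287 to 1000594 in old controls and 764984 to 1065183 with both tocopherols.

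In the sarcomere and Z-disc list 4 of 25 rose and 1 fell (median 0.04). The beta myosin heavy chain Myh7, the slow motor that increases in stressed ventricle, read 24944, 38368, 29415, 37528 and 21637 in old controls and 93242, 40917, 49595, 40617 and 44736 with both tocopherols (0.78 ± 0.20, adjusted p = 0.023). Supplemented animal 1 carried by far the highest value, and without it the difference was 0.56 ± 0.17 (adjusted p = 0.0594). The other 4 animals also lay above all controls. A second probe set of Myh7, at 0.73, was not called. Myosin heavy chain genes resemble each other, so signal of a relative cannot be separated.

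Myom2, an M-band protein, read 4501, 4727, 3295, 6248 and 5999 in old controls against 8909, 6688, 9567, 8982 and 9283 with both tocopherols (0.83 ± 0.17, adjusted p = 0.0054). Myoz1, a Z-disc protein that binds calcineurin, read 245, 207, 167, 206 and 267 in old controls against 1103, 577, 418, 1163 and 1004 with both tocopherols (1.64 ± 0.40, adjusted p = 0.019). The groups were apart in each gene. The titin cap Tcap rose (0.59 ± 0.18, adjusted p = 0.048), with overlap and close to the threshold.

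Speg, a kinase that joins sarcomere and sarcoplasmic reticulum, read 4532, 4733, 3902, 3946 and 3406 in old controls and 1689.6, 2052, 1475, 1958 and 2017 with both tocopherols (-1.13 ± 0.15, adjusted p = 0.00028). The lowest control lay well above the highest supplemented animal. Fhl2, a cofactor that restrains hypertrophic signalling, fell from a range of 61894 to 67754 to one of 46198 to 55911 (-0.33 ± 0.08, adjusted p = 0.016). Fkbp1a, which steadies the ryanodine receptor, fell from a range of 12680.3 to 14297 to one of 8085 to 11704 (-0.40 ± 0.10, adjusted p = 0.019) and was the 1 called gene of 20 in calcium handling (median -0.09). Neither gene had overlapping groups.

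Of 6 tested atrial markers 1 fell and 0 rose, with a median of -0.28. The atrial light chain Myl4 fell from a range of 28194 to 47760.0 to one of 19358 to 27990.5 (-0.61 ± 0.17, adjusted p = 0.038), and its second probe set, at -0.31, was not called. The atrial natriuretic peptide Nppa read 23435, 22739.6, 23468, 23213 and 28852 in old controls against 21214, 15636, 16338, 18451 and 19896 with both tocopherols (-0.41 ± 0.13, adjusted p = 0.065), not called although the groups did not overlap. The sum over 7 atrial markers was 95857 to 126841 in old controls and 68363 to 92303 with both tocopherols, without overlap. Myl4 and Nppa, with the intensities above, are large parts of this sum, so it is not independent of them. The share of atrial tissue in each sample, and its part in these differences, was not tested.

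The ventricular stress peptide Nppb was not called (0.19 ± 0.26, adjusted p = 0.71). Among 12 skeletal muscle markers 1 rose, the calcium buffer parvalbumin (Pvalb, 0.53 ± 0.16, adjusted p = 0.043), and the list median was 0.26. Differences ran from -0.98 to 0.56, with 9 of the 12 above 0. The sum over 16 such markers went the other way, with overlapping ranges. It was 32991 to 47599 in old controls (median 43111) and 31744 to 39552 with both tocopherols (median 34800). The calls on Myom2 and Speg held under every alternative that tested them. Myh7, Tcap, Fkbp1a, Myl4 and Pvalb lost their calls with the hybridization covariate, Myh7, Tcap, Myl4 and Pvalb with the 18S covariate, and Myh7, Myoz1, Tcap, Fhl2, Fkbp1a and Pvalb without old controls 1 and 4. Myh7 was not called without animal 1 fed both tocopherols or old control 1 or 5 (adjusted p up to 0.066). The Myoz1 call was lost without animal 1 fed both tocopherols (adjusted p up to 0.053). Tcap was not called without any 1 animal other than animal 5 fed both tocopherols and old controls 2 and 4 (adjusted p up to 0.13). The Myl4 call was lost without any 1 animal other than animals 3 and 4 fed both tocopherols and old control 4 (adjusted p up to 0.11). Pvalb was not called without any 1 animal other than animals 3 and 5 fed both tocopherols and old control 5 (adjusted p up to 0.12). Another filter, scaling or model setting also ended the calls on Tcap, Myl4 and Pvalb.

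In the list of p53 targets and DNA damage genes 3 of 19 fell, 1 rose, and the median was -0.16. Gadd45a, a growth arrest gene, read 1322, 1206, 1565, 1509.6 and 1337 in old controls and 805, 915, 905, 369.7 and 823 with both tocopherols (-0.87 ± 0.25, adjusted p = 0.037). Cyclin G1 (Ccng1) fell from a range of 6147 to 7839 to one of 4199.6 to 5831 (-0.47 ± 0.14, adjusted p = 0.041) and Ei24, an autophagy and apoptosis protein of the ER, from a range of 4523 to 5280.3 to one of 2832 to 3986 (-0.50 ± 0.11, adjusted p = 0.0072). In these 3 genes the groups did not overlap. The riser, the uracil glycosylase Ung, had a probe set called higher (0.36, adjusted p = 0.048) and another called lower (-0.57, adjusted p = 0.0052), so its direction was not settled. The cell cycle inhibitor Cdkn1a, the best known p53 target, was not called (0.39 ± 0.23, adjusted p = 0.32).

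Among 18 cell death regulators 2 rose and 0 fell (median 0.07). Bnip3, which marks mitochondria for removal, read 2335, 2723, 1616, 2397 and 2824 in old controls and 5541, 4184, 5347, 5359 and 3684 with both tocopherols (1.01 ± 0.16, adjusted p = 0.0011). All supplemented animals lay above all controls. The other riser, the Bcl2-interacting Bnip2, had a probe set called higher (0.47, adjusted p = 0.042) and another called lower (-0.47, adjusted p = 0.016), so its direction was not settled. Of 17 immediate early transcription factors 0 were called (median -0.01, and 0.01 after quantile normalization). The calls on Ei24 and Bnip3 held under every alternative that tested them. Gadd45a, Ccng1, Bnip2 and Ung lost their calls with the hybridization covariate and without old controls 1 and 4, and Ccng1, Bnip2 and Ung with the 18S covariate. Gadd45a was not called without any 1 animal other than animals 2, 3 and 5 fed both tocopherols (adjusted p up to 0.096). The Ccng1 call was lost without any 1 animal other than animal 3 fed both tocopherols and old control 4 (adjusted p up to 0.12). Bnip2 was not called without any 1 animal other than old controls 2 and 3 (adjusted p up to 0.11). The Ung call was lost without any 1 animal other than animal 3 fed both tocopherols and old control 1 (adjusted p up to 0.12). Gadd45a, Ccng1, Bnip2 and Ung also lost their calls under another filter, scaling or model setting.

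The circadian clock runs on a loop in which the factors Clock and Bmal1 switch on their own inhibitors, among them the Cry and Per proteins, through E-box sites in DNA. Of 12 clock genes 1 rose and 1 fell (median -0.06). Cry1, one of the inhibitors, read 1104, 1366, 987, 905 and 988 in old controls and 2359, 1758, 1817, 2292 and 2067 with both tocopherols (0.91 ± 0.16, adjusted p = 0.0018). Dbp, an output factor of the clock, read 2286, 2330.1, 2768, 2118 and 1730.0 in old controls against 614, 951, 604, 1036 and 726 with both tocopherols (-1.46 ± 0.30, adjusted p = 0.0061). The groups were apart in both genes, in opposite directions. The sources used here do not give the hour of tissue collection.

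The 250 bases before the RefSeq start sites of these genes (GRCm38.p6) are shown because their levels moved in opposite directions, with a perfect E-box (CACGTG, which reads the same on both strands) in capitals. The Cry1 window, chr10:85185055-85185304 on the minus strand, held 1, and the Dbp window, chr7:45704997-45705246 on the plus strand, held 0. Of 32851 such windows 1978 (6.02%) held the motif.
Cry1: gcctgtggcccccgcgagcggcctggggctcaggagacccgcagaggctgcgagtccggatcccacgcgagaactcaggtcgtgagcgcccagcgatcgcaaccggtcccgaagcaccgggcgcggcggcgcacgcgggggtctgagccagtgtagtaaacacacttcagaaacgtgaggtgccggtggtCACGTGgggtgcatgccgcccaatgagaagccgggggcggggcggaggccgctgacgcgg
Dbp: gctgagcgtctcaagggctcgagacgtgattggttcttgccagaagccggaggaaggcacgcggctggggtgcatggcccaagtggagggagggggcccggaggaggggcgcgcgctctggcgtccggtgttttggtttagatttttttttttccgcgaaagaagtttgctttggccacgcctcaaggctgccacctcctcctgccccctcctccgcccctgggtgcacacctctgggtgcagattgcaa
A match is a description of the letters, and E-boxes outside these windows were not searched. The part of E-boxes in the levels of these genes was not tested.

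Nr1d1, which encodes the clock repressor Rev-erb alpha, read 3677, 3353, 4263, 3528 and 3278 in old controls against 2809.8, 3666, 2056, 1677 and 2741 with both tocopherols and was not called against old controls (-0.52 ± 0.18, adjusted p = 0.087). Zbtb16, a factor that responds to glucocorticoids, read 1095, 916, 674, 967 and 598 in old controls and 1871, 1181, 5463, 2025 and 1335 with both tocopherols (1.22 ± 0.28, adjusted p = 0.015). Supplemented animal 3 was far above the others, and without it the difference was 0.87 ± 0.20 (adjusted p = 0.0155). Of 15 glucocorticoid-responsive genes 2 rose and 1 fell, with a median of 0.01 that was -0.01 after array medians were set equal. The calls on Cry1, Dbp and Zbtb16 held under every alternative that tested them.

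Several of the largest rises fell in no list. Cyp2b10, a drug-metabolizing cytochrome P450 of a family with close copies, read 947, 918, 830.3, 374 and 882 in old controls and 2990.3, 1693, 2323, 2346 and 1578 with both tocopherols (1.43 ± 0.30, adjusted p = 0.0068). Elk1, a transcription factor of the growth factor response, read 386, 544, 335, 445 and 287 in old controls against 934, 1078, 822, 1017 and 1262 with both tocopherols (1.25 ± 0.21, adjusted p = 0.0012). All supplemented animals exceeded all controls in both genes.

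Ptgds, an enzyme of prostaglandin D synthesis, read 8656, 11199, 11233, 11786 and 7129 in old controls against 39319, 15121, 57700.1, 14219.7 and 17092 with both tocopherols (1.30 ± 0.31, adjusted p = 0.017). Animals 1 and 3 of the supplemented group were far higher than the rest, and the groups did not overlap. Its other probe sets, at 0.96 and 1.11, were called too. The protease genes Mep1b (1.55 ± 0.33, adjusted p = 0.0083) and Klk1b16 (1.43 ± 0.31, adjusted p = 0.0081), the latter of a large family of close copies, were dim genes that rose without overlap. The calls on Cyp2b10, Elk1 and Klk1b16 held under every alternative that tested them. Ptgds and Mep1b lost their calls without old controls 1 and 4. Ptgds was not called without animal 1 fed both tocopherols (adjusted p up to 0.053).

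**Figure D4:**
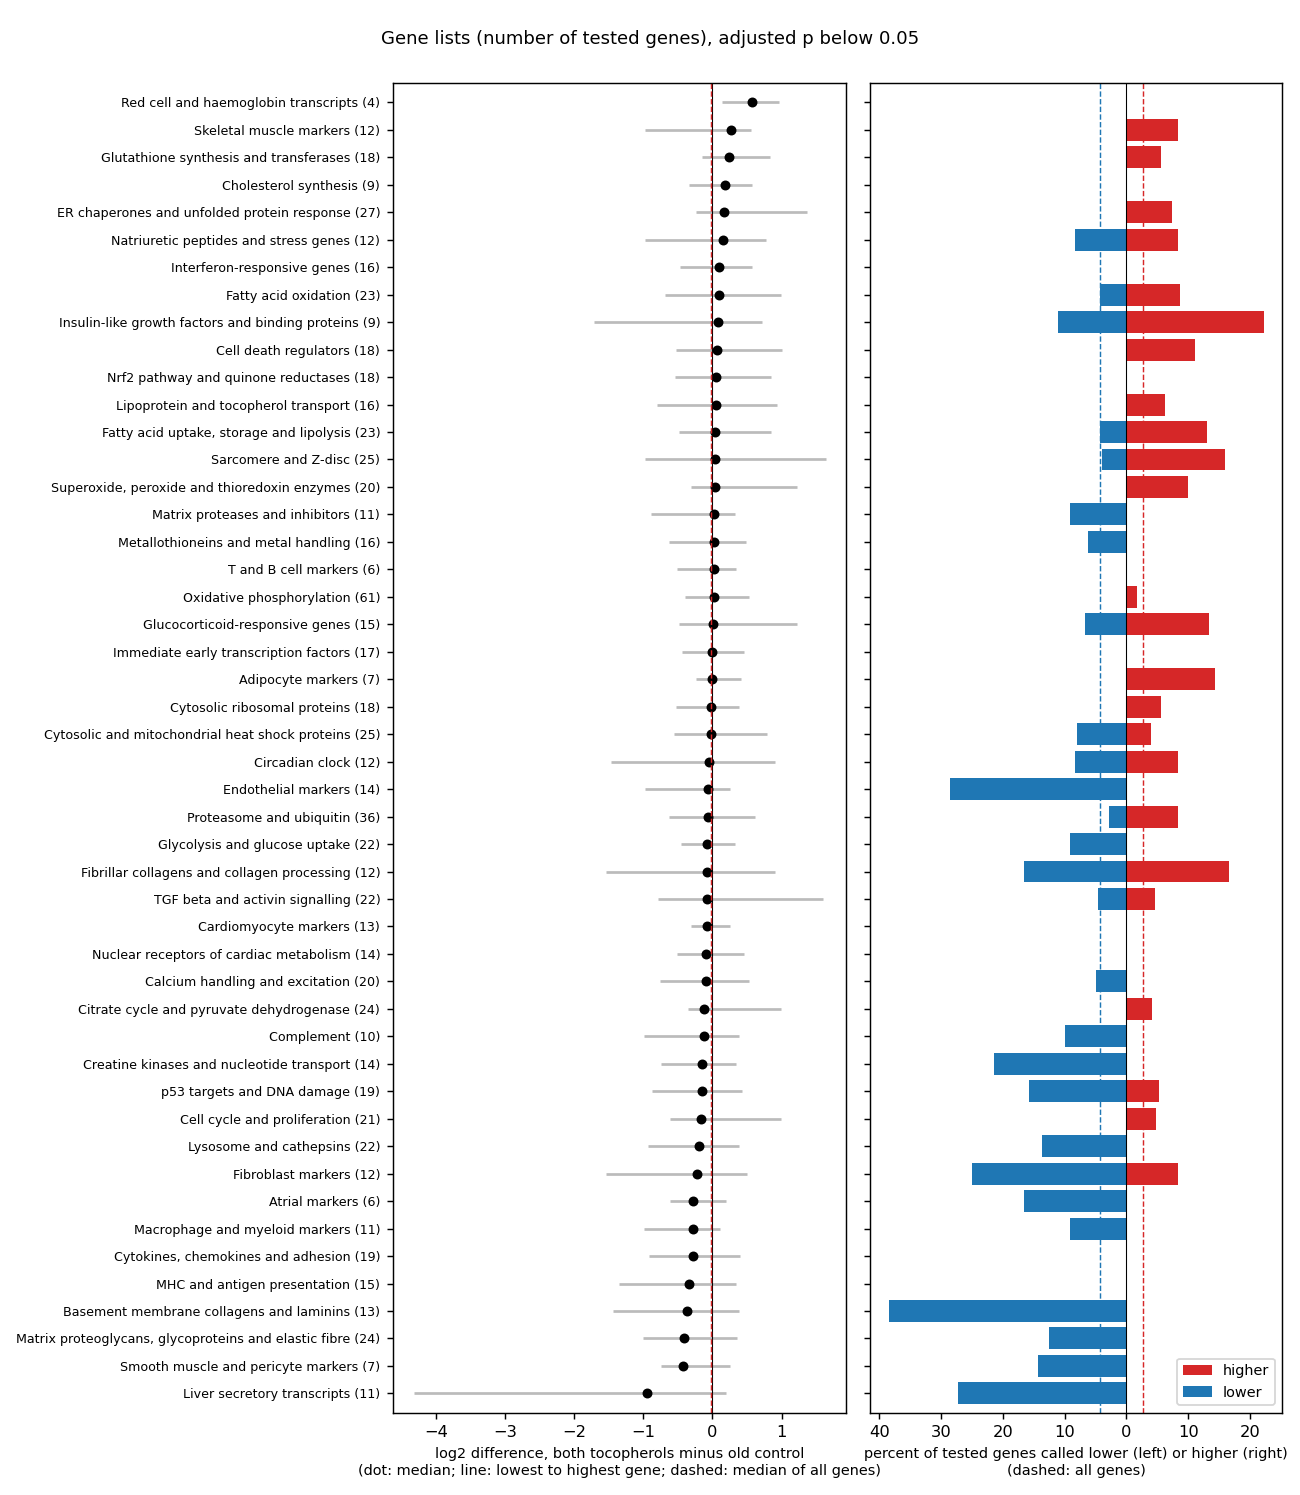
Left, for each of 48 gene lists with the number of tested genes in brackets, the median (dot) and the lowest to highest gene (line) of the log2 difference between both tocopherols and old controls. Right, the percent of tested genes called lower (blue) and higher (red), with dashed lines for all named genes (4.22% and 2.63%). Basement membrane genes have the highest share of lower calls, 5 of 13, and liver transcripts the lowest median, -0.94.

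The mixed diet was also set against alpha-tocopherol alone, which shares no array with the old controls. The diets differ in the alpha dose, 500 against 1000 mg/kg, as well as in the 500 mg/kg of gamma-tocopherol, and these cannot be told apart. In the direct fit 42 of 7453 probe sets (0.564%) and 26 named genes (0.459%) were called. The count was 0 when the fit held these groups alone, with either covariate, and without supplemented animal 4, and it was 3 without animal 3, 79 without animal 2, and 1 without alpha-tocopherol animal 3 or 5. A difference had a median standard error of 0.179.

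Sod1 was lower with the mixture than with alpha-tocopherol alone, by -1.18 ± 0.27 (SE, adjusted p = 0.042). Alpha-tocopherol animals read 61480.0, 59551, 58345, 56887 and 56123, and the mixture gave the values listed above, so the groups did not overlap. Nr1d1 differed by -0.94 ± 0.18 (SE, adjusted p = 0.031), with 5547, 3793, 3924, 4934 and 6640.5 in the alpha-tocopherol group. Angptl4 differed by -0.62 ± 0.14 (SE, adjusted p = 0.042), with 970.3, 974, 854, 930.5 and 973 in the alpha-tocopherol group against 547, 501, 591, 708 and 632. The alpha-tocopherol arrays stood apart on both control measures. Their 18S signal was 12.21 to 12.74 on the log2 scale against 9.90 to 11.98 with the mixture, and their hybridization control 13.321 to 13.778 against 12.393 to 13.319, so neither overlapped. With either level as a covariate none of these 3 genes was called.

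For other genes the direct difference was not called, and its error shows what could be seen. Col3a1 differed by -0.14 ± 0.26 (SE, adjusted p = 0.84), Alb by 0.38 ± 0.64 (SE, adjusted p = 0.82), Gstm1 by -0.10 ± 0.09 (SE, adjusted p = 0.64) and Cd34 by 0.05 ± 0.16 (SE, adjusted p = 0.93). Bnip3 differed by 0.63 ± 0.16 (SE, adjusted p = 0.066) and Nipsnap2 by -0.95 ± 0.24 (SE, adjusted p = 0.062). A p above the threshold does not show that the diets act alike.

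Levels in all 4 groups are given side by side, as means of log2(intensity + 58) ± SD over 5 animals, since the old control arrays enter every comparison with them. The genes shown were chosen among those called against old controls, which favours an extreme old control mean. A return towards young levels was not tested. Col15a1 was 10.89 ± 0.36 in young controls, 11.89 ± 0.15 in old controls, 10.88 ± 0.29 with alpha-tocopherol and 10.45 ± 0.60 with both. Speg was 10.92 ± 0.35, 12.01 ± 0.19, 11.27 ± 0.17 and 10.88 ± 0.20 in the same order, and Alas1 13.69 ± 0.21, 14.85 ± 0.15, 14.36 ± 0.13 and 14.22 ± 0.08. For Speg the mixture and young control means lay within 1 SD of each other, while for Alas1 both supplemented groups lay between young and old controls.

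Myh7 was 15.88 ± 0.34 in young controls, 14.86 ± 0.36 in old controls, 15.85 ± 0.15 with alpha-tocopherol and 15.64 ± 0.50 with both. Pnpla2 was 15.11 ± 0.19, 13.98 ± 0.41, 15.09 ± 0.10 and 14.82 ± 0.17, and Slc2a4 13.17 ± 0.17, 13.67 ± 0.14, 13.13 ± 0.06 and 13.27 ± 0.13. In these genes old controls formed 1 extreme, which the choice of genes called against them favours. Pdk4 was 15.32 ± 0.23, 12.48 ± 0.60, 13.19 ± 0.74 and 13.48 ± 0.41, so the mixture stayed far below young controls. Ucp3 was 11.98 ± 0.28, 9.97 ± 0.19, 9.66 ± 0.30 and 9.27 ± 0.39, with the mixture lowest and young controls highest.

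Timp2 and Igfbp6 had like levels in both control groups. Timp2 was 11.38 ± 0.16, 11.34 ± 0.16, 10.59 ± 0.25 and 10.45 ± 0.22, and Igfbp6 was 11.22 ± 0.19, 11.21 ± 0.27, 9.87 ± 0.72 and 9.50 ± 0.70. Young and old control means differed by less than 1 SD in each, and both supplemented groups lay below them.

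**Figure D5:**
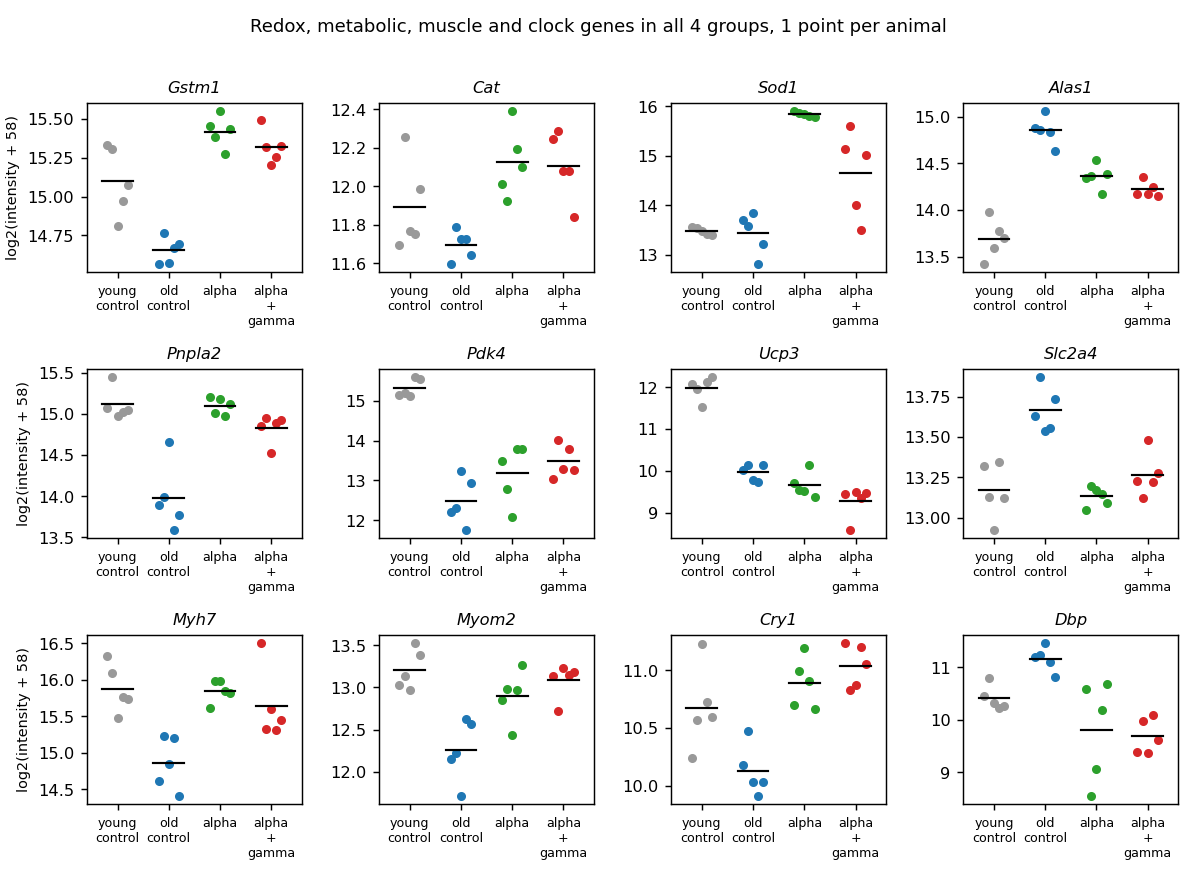
Level of 12 redox, metabolic, muscle and clock genes as log2(intensity + 58) in young controls (grey), old controls (blue), alpha-tocopherol (green) and both tocopherols (red), 1 point per animal and the group mean as a line. By group mean old controls are lowest in Gstm1, Cat, Sod1, Pnpla2, Pdk4, Myh7, Myom2 and Cry1 and highest in Slc2a4, Alas1 and Dbp. In Sod1 young and old controls lie close together, and the mixture spreads from the old control level towards alpha-tocopherol. All 12 genes were called against these same old controls.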

How the data were processed

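Transcripts of 20 mouse hearts were measured on 1 oligonucleotide array per animal. Per the labels' protocols, polyadenylated RNA was purified, copied with an oligo-dT primer into biotin-labelled RNA and fragmented. The deposited table holds linear intensities per probe set, and the software was not stated in the sources used here. Array medians of log2(intensity + 58) spanned 0.115, and the main fit used the intensities without further scaling between arrays. From these intensities log2(intensity + 58) was computed, where 58 is near the tenth percentile of all intensities (57.6). Control probe sets and the dimmest 40% were left out. No array duplicated another (correlations within groups 0.914 to 0.975).

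limma 3.58.1 in R 4.3.3 was fitted to all 20 arrays with group means, and moderated with a variance trend and robust setting (16 residual degrees of freedom). The number of arrays limits the precision. Data were simulated with 200 of 7453 probe sets changed. The noise was independent and normal, with the same spread in every group for each probe set. There, 33% of differences of 0.5 and 76% of differences of 1 (log2) were called in this comparison, and 2.68% of calls were false. The simulation held no unequal spreads, outlying arrays or shifts in control levels, so these rates may not hold for the measured arrays. Of 12422 probe sets, 10833 had a single symbol, 396 several and 1193 none, and 10817 matched a RefSeq table (GRCm38.p6) by gene identifier. Those with several or none were tested and not named. A gene is its brightest tested probe set; 909 genes had several. Array measures were compared by exact permutation, which cannot go below 0.0079 for 5 against 5.

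Members, 48 lists and tests were chosen with earlier results of these data known. The rule for named genes took the 20 largest called differences in each direction, up to 5 called members of each list (or the one with the smallest p), and a short fixed list; the text names part of them, 95 in all. Alternatives were pseudocounts of 16 and 200, filters, scalings, variance settings, array weights, the compared groups alone, a replicate block, the covariates, and leaving out animals.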

Additional observations from a re-analysis of the deposited data

Results flagged for a closer look

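In 21 of 200 groups of 5 animals examined for the genes and array measures reported, the highest or lowest animal stood apart by Dixon's criterion (gap over range above 0.710). Chance alone flags about 1 in 20 groups, and 12 of the cases were in supplemented animals and 9 in old controls.

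Old control 3 stood apart in several measures. Its Gapdh 3' minus 5' difference was 1.211 on the log2 scale, Cd74 was highest at 15282.9, Hspa8 was highest at 13815.4, C1qb was lowest at 2094.2 and Cavin1 was lowest at 2459.2. Old control 4 was highest for Col4a1 (8091.8) and lowest for Ccng1 (6146.8) and Cyp2b10 (374.4). Old control 5 was highest for Nppa (28851.9).

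Among animals fed both tocopherols, animal 5 was highest for Alb (641.0) and Bnip2 (2961.5) and had the lowest hybridization control level (12.393 on the log2 scale). Animal 1 was highest for Myh7 (93242.2), lowest for Psmb2 (6761.1) and highest for the Gapdh 3' minus 5' difference (0.011). Animal 2 was lowest for Ucp3 (327.9), Myom2 (6688.4) and Ccng1 (4199.6). Animal 3 was lowest for Postn (890.8) and Pnpla2 (23477.0), and animal 4 was lowest for Gadd45a (369.7).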

How the results depend on the processing

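Of 83 genes named as called, 32 stayed called under every alternative that tested them (up to 23), and 51 lost the call under at least 1, 36 with the hybridization covariate and 25 with the 18S covariate. None of these genes changed sign. For both tocopherols against old controls the 479 calls became 858 with array weights (466 shared), 242 with the hybridization covariate (227 shared) and 162 without old controls 1 and 4 (153 shared). Leaving out 1 animal gave 263 to 447 calls, with 263 without animal 1, 299 without animal 2 and 300 without old control 5, the cases more than 1.5 times below the main count. Other pseudocounts, filters, scalings and variance settings gave 408 to 506.

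For both tocopherols against alpha-tocopherol alone the 42 calls became 0 with these groups alone or with either covariate, 7 with array weights, 11 without a filter or without the variance trend, 23 with array medians set equal and 64 with the dimmest 60% left out. Leaving out 1 animal gave 0 to 79, and 0 calls came with 960 probe sets at an unadjusted p under 0.05 in that fit. The cause was not tested for any of these shifts.

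Replicate numbers were not shown to pair animals, since deviations of same-numbered arrays correlated at -0.05 to 0.05 and 0 arrays correlated best with their own number. A replicate block gave 451 calls against old controls, of which 411 were shared, and 34 against alpha-tocopherol. It ended the calls on Pecam1, Lpl, Hspa9, Pdk4, Angptl4, Pvalb, Bnip2 and Ung. Signal limits dim genes, for which the added constant shrinks differences.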

Other observations

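A pair of gene families outside the lists above was taken by symbol after the values had been seen, so their counts are descriptions. Proteins of the hnRNP family bind nascent transcripts and take part in splicing. Of 16 tested genes with the prefix Hnrnp 7 were called lower and 0 higher, while 4.22% of all named genes were called lower and 2.63% higher. The family median was -0.47, against -0.02 over all named genes. Hnrnpa2b1 differed by -0.85 ± 0.15 (SE, limma adjusted p = 0.0024), Hnrnpm by -0.76 ± 0.15 (adjusted p = 0.0054) and Hnrnph3 by -0.75 ± 0.16 (adjusted p = 0.0064), each with all 5 supplemented animals below all 5 old controls. Groups did not overlap in 8.71% of all named genes. The family median ran from -0.54 to -0.37 over the alternatives, and 3 genes were called without old controls 1 and 4, 5 when the 18S level was a covariate and 4 when the hybridization level was. Calls over all probe sets were 162, 344 and 242 in those fits, against 479 in the main fit.

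Subunits of the mitochondrial ribosome make the proteins encoded by mitochondrial DNA. Of 59 tested genes with the prefixes Mrpl and Mrps 12 were called lower and 0 higher, with a median of -0.14. Over all named genes 4.22% were called lower and 2.63% higher. Mrpl12 differed by -0.85 ± 0.14 (limma adjusted p = 0.0015) and Mrpl18 by -0.45 ± 0.10 (adjusted p = 0.0088). The called count was 4 without old controls 1 and 4, 8 when the 18S level was a covariate and 6 when the hybridization level was, and the median stayed below 0 under every alternative run (-0.17 to -0.11).

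Probe sets of the same gene did not always move together. Of 112 genes with several tested probe sets and at least 1 called, 78 had every probe set on the same side of 0, 10 had all of them called, and 5 had probe sets called in opposite directions. These 5, named for that reason, were Bnip2, Rae1, Tubb2a, Tubb3 and Ung. For Tubb3 the called differences were -0.93 ± 0.13 and 0.97 ± 0.29 (limma adjusted p = 0.00037 and 0.048).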
